A study of Rattus norvegicus with 18 samples.

Results

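The 10 genes described here encode the light response of cone photoreceptors. They were chosen by symbol and all 10 were found, among 32285 genes in the retina table and 32552 in the RPE/choroid table. They comprise 2 opsins, the cone arrestin, 3 transducin subunits, 2 phosphodiesterase subunits and 2 channel subunits. The libraries came from wild-type (WT) female Fischer 344 rats, an inbred strain whose retina thins with age. Young rats were untreated and 4 months old by the labels, although the study's figure legends give another age for its young rats. Aged rats were 24 months old and were given water alone or 8-aminoguanine (8-AG), an inhibitor of purine nucleoside phosphorylase, in the drinking water at 5 mg/kg per day for 8 weeks. Bulk RNA-seq was performed on neural retina and on RPE/choroid, which is the retinal pigment epithelium with the underlying vascular layer, with 3 libraries per group and 18 in all. The sources used here do not say whether each library came from a separate rat, so p-values measure the spread between libraries.

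In a cone, light activates an opsin, which turns on the cone transducin, and transducin in turn releases the cone phosphodiesterase from its inhibitory subunit. The phosphodiesterase breaks down cyclic GMP, the cyclic nucleotide-gated channel closes and the cell hyperpolarizes, while arrestin ends the signalling of the opsin. Rods run the same cascade with a related set of proteins. Rod-dominated rat retinae hold few cones, so cone transcripts are a small share of the RNA of the whole tissue.

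The annotated starts of 5 members could be matched by symbol to RefSeq promoter sequences of the GRCr8 build. The 250 bases before the start are shown for both opsins and for Cnga3, since these 3 members were lower in aged retinae. Capitals mark matches to TAATCC, the core bound by the photoreceptor factor CRX, or to AGGTCA, a nuclear receptor half-site, on either strand, and the pair of motifs was chosen with the results known. The Opn1sw sequence lies at chr4:58945826-58946075 on the minus strand, the Opn1mw sequence at chrX:157056105-157056354 and the Cnga3 sequence at chr9:46943103-46943352, both on the plus strand.
Opn1sw: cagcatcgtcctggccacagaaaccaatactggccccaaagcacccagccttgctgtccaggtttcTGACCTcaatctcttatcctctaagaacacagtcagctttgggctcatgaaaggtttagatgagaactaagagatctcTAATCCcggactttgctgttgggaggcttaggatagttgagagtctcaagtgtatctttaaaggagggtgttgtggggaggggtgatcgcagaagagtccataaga
Opn1mw: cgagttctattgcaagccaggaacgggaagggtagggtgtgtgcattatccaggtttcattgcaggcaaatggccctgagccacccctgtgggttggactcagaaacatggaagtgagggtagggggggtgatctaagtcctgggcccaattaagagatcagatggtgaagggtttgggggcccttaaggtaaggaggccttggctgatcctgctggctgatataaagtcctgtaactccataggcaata
Cnga3: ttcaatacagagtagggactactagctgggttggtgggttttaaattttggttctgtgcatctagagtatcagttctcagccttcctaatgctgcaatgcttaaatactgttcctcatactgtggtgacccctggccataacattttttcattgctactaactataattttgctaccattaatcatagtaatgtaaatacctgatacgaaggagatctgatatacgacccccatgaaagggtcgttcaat
Of the 5 members with a sequence, Opn1sw alone held either motif. Its TAATCC began 106 bases before the start, and TGACCT, the reverse complement of AGGTCA, began 184 bases before it. Among 33469 promoters of the same length, 6.34% held TAATCC and 14.1% held AGGTCA on either strand. The absence of a match says only that these letters are not in the window.

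Total counts per library ranged from 12283425 to 15644317 in retina and from 28573828 to 48203050 in RPE/choroid. Levels are given as CPM, counts scaled to the size of each library with TMM factors over the 9 libraries of a tissue. Summed lens markers reached 2751 and 6053 CPM in young retina libraries 1 and 2 and 1710 CPM in 8-AG library 1, against 145.6 CPM in young library 3 and 17.0 to 24.0 CPM in the 3 aged and the other 2 8-AG libraries. All 3 young libraries thus lay above all aged ones, and all 7 lens markers tested were lower on average in aged than in young retinae, 2 of them past the adjusted threshold of edgeR. Their part in the values of aged against young retinae was not tested. The RPE markers summed to 335.7 CPM in that same 8-AG library and to between 21.8 and 197.7 CPM in the other retinal libraries. Of 8 RPE markers, 7 were higher on average in aged than in young retinae (median log2 fold change 0.90). All 8 were higher on average in 8-AG treated than in aged retinae (median 0.74). In both comparisons 0 passed the adjusted threshold of edgeR, and their part in the cone values was not tested. The 8-AG retinal libraries carry the molecule label total RNA and the other retinal libraries polyA RNA, although the protocol describes poly-A capture for all, so that any difference in preparation cannot be told apart from the treatment. The 3 libraries with over 1000 CPM of lens markers are drawn as open points.

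**Figure D1:**
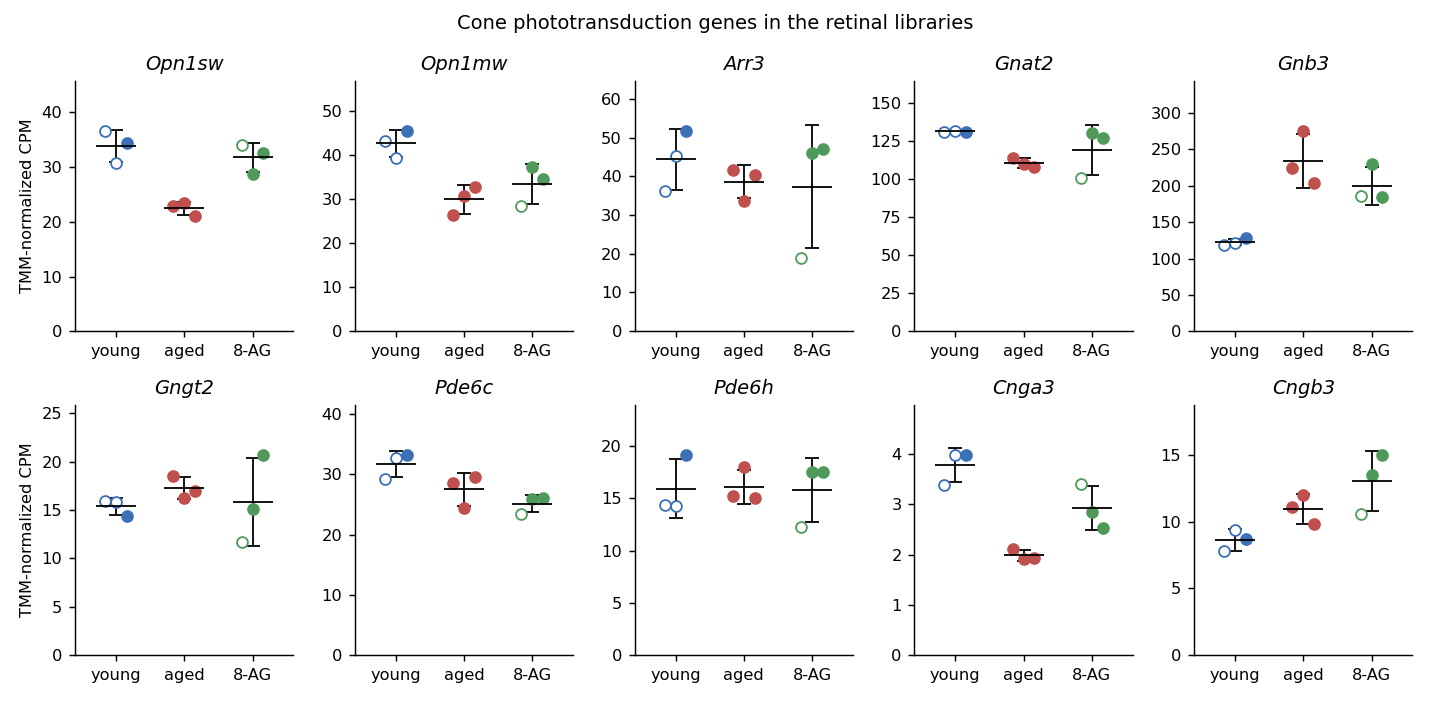
TMM-normalized CPM of each cone gene (y axes, starting at 0) in the young, aged and 8-AG treated retinal libraries (x axes). Points are single libraries, horizontal marks are means and bars are SD (n = 3). Open points are the 3 libraries with over 1000 CPM of summed lens markers. For Opn1sw, Opn1mw, Gnat2 and Cnga3 all aged points lie below all young points, and for Gnb3, Gngt2 and Cngb3 above them.

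In the retina, 5 of the 10 cone genes differed between aged and young rats. Both opsins, the transducin alpha subunit Gnat2 and the channel subunit Cnga3 fell, and the transducin beta subunit Gnb3 rose. These passed an adjusted p under 0.05 in edgeR's quasi-likelihood test with Benjamini-Hochberg adjustment over all genes, a threshold that 14.5% of 14588 genes passed. By the study's rule for differentially expressed genes (fold change over 1.5 and unadjusted P under 0.05), 3 members were called, Opn1sw and Cnga3 lower and Gnb3 higher, against 8.84% of genes. For 7 members the aged and young libraries did not overlap, against 35.3% of genes. The median log2 fold change of the members was -0.21, beside 0.00 for all genes. It ran from -0.26 to -0.12 when single libraries were left out, and was -0.12 without aged library 2 and -0.13 without young library 3.

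Opn1sw, the short-wavelength opsin, measured 36.6, 30.8 and 34.3 CPM in young retinae and 22.9, 23.4 and 21.1 CPM in aged retinae. No aged value reached the lowest young value. The log2 fold change was -0.59 (SE 0.09, adjusted p = 0.0023 by edgeR), or 0.663 of the young level. This lay just past the fold threshold, and Opn1sw was not called by the study's rule without young library 1 or aged library 3, nor by limma on the normalized values of the authors.

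Opn1mw, the middle-wavelength opsin, measured 43.3, 39.5 and 45.5 CPM in young retinae and 26.4, 30.7 and 32.8 CPM in aged retinae. The groups did not overlap. Opn1mw fell by 0.51 on the log2 scale (SE 0.10, adjusted p = 0.0064 by edgeR).

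Arr3, the cone arrestin that quenches the activated opsin, measured 36.2, 45.2 and 51.7 CPM in young retinae and 41.8, 33.7 and 40.4 CPM in aged retinae. These ranges overlapped, and the log2 fold change of -0.20 (SE 0.13, adjusted p = 0.359 by edgeR) did not pass the test. It ran from -0.33 without young library 1 to -0.083 without young library 3, and was -0.42 without both lens-rich young libraries.

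Gnat2, the transducin alpha subunit that couples the opsin to the phosphodiesterase, measured 131.3, 131.6 and 131.2 CPM in young and 113.9, 110.1 and 107.7 CPM in aged retinae. The groups were separate, with little spread within each. Its log2 fold change was -0.25 (SE 0.05, adjusted p = 0.012 by edgeR). Gnb3, the beta subunit shared by cones and ON bipolar cells, measured 119.2, 121.2 and 128.1 CPM in young and 224.3, 275.3 and 203.7 CPM in aged retinae. It was the only member called higher, with all aged libraries above all young ones and a log2 fold change of 0.93 (SE 0.10, adjusted p = 0.000792 by edgeR). The 11 bipolar cell markers tested summed to between 1812 and 1959 CPM in young and between 1354 and 1892 CPM in aged retinae. Of these 11, Cabp5 rose (log2 fold change 0.55, adjusted p = 0.0019 by edgeR), Prkca fell (-0.32, adjusted p = 0.034 by edgeR) and 9 did not pass, and their part in the Gnb3 value was not tested. Gngt2, the gamma subunit, measured 16.0, 15.8 and 14.4 CPM in young and 18.5, 16.3 and 17.0 CPM in aged retinae, which did not overlap but did not pass the test (log2 fold change 0.16, SE 0.10, adjusted p = 0.307 by edgeR).

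Neither phosphodiesterase subunit passed the test. Pde6c, the catalytic subunit, measured 29.2, 32.8 and 33.3 CPM in young and 28.6, 24.4 and 29.5 CPM in aged retinae (log2 fold change -0.21, SE 0.09, adjusted p = 0.177 by edgeR). Pde6h, the inhibitory subunit, measured 14.3, 14.3 and 19.2 CPM in young and 15.2, 18.0 and 15.1 CPM in aged retinae (0.01, SE 0.13, adjusted p = 0.966 by edgeR), and its sign changed with the libraries included.

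Of the channel subunits, Cnga3 fell and Cngb3 did not pass the test. Cnga3, the alpha subunit that forms the pore, measured 3.39, 3.99 and 3.99 CPM in young and 2.11, 1.91 and 1.94 CPM in aged retinae. It rested on the fewest counts of the members, with 44, 53 and 59 counts in young and 27, 30 and 28 in aged libraries. The log2 fold change was -0.93 (SE 0.21, adjusted p = 0.015 by edgeR), and it did not pass with DESeq2 (-0.94, adjusted p = 0.056). Cngb3, the beta subunit that modulates the channel, measured 7.78, 9.41 and 8.72 CPM in young and 11.1, 12.1 and 9.81 CPM in aged retinae. The groups did not overlap, but the log2 fold change of 0.35 (SE 0.13, adjusted p = 0.111 by edgeR) did not pass the adjusted threshold.

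The count of 5 depended on single libraries. It was 3 without young library 2 and 3 without aged library 3, and Gnat2 and Cnga3 lost their calls in both cases. Without young library 1 it was 4, as Gnat2 was lost. Over the 6 fits that each left out 1 library, the log2 fold change of Gnat2 ran from -0.27 to -0.23 and that of Cnga3 from -1.004 to -0.90. With both lens-rich young libraries left out, which leaves a single young library, still above the aged ones in lens markers and assumed to vary like them, 2 members kept an adjusted p under 0.05 and Opn1mw, Gnat2 and Cnga3 did not, at log2 fold changes of -0.60, -0.24 and -1.003. The count by the fold and P rule was 4 in that setting, with Opn1mw added, and it was 2 to 3 with single libraries left out. CPM is relative to all counts of a library. In these bulk samples, fewer cones, less RNA per cone and a change in the other RNA cannot be told apart.

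**Figure D2:**
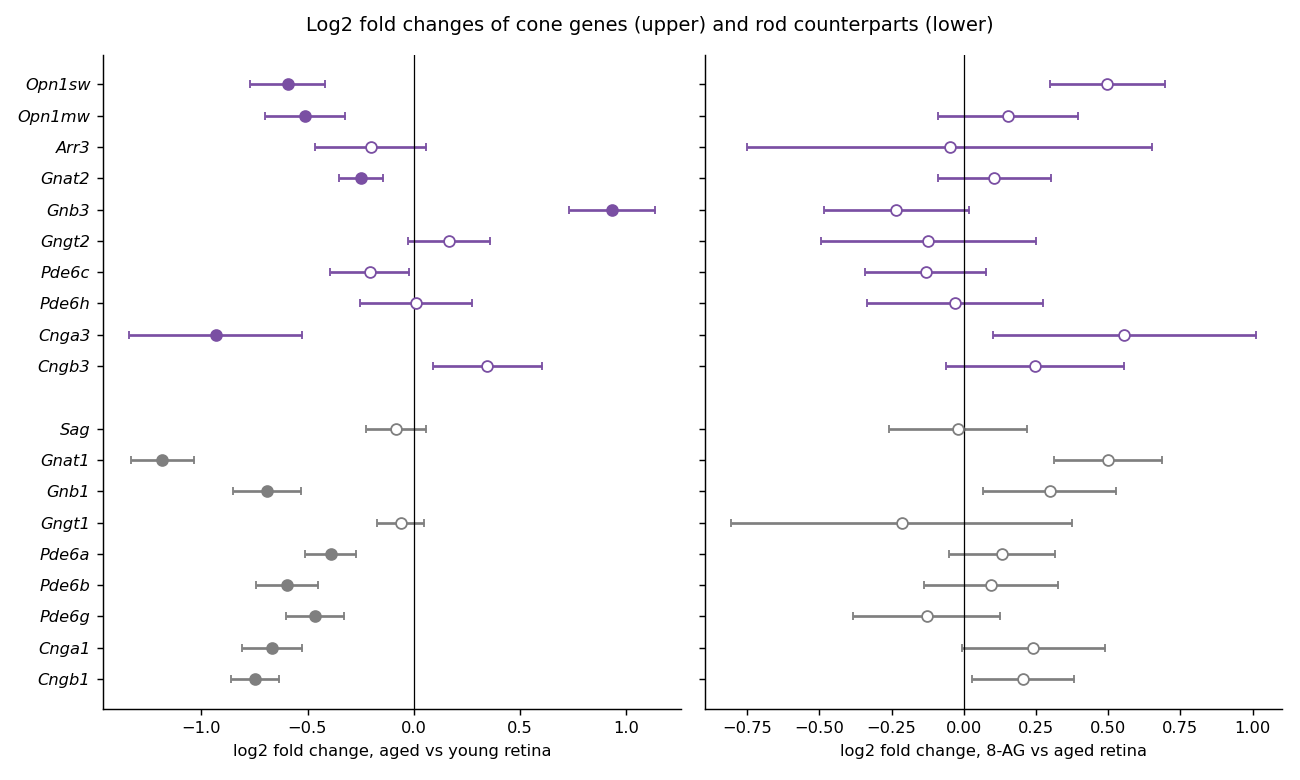
Log2 fold change (x axes) of the 10 cone genes (purple) and 9 rod counterparts (gray) for aged against young retinae (left) and 8-AG treated against aged retinae (right), with bars of 95% confidence intervals by a normal approximation (n = 3 per group). Filled points passed an adjusted p under 0.05 in edgeR. On the left, 5 cone genes and 7 rod genes are filled, and on the right none is.

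The 9 rod counterparts examined, rod-expressed genes of the arrestin, transducin, phosphodiesterase and channel steps (with Gnb1, which many cell types also express), were all lower in aged retinae, and 7 of 9 fell. Their median log2 fold change was -0.60. The rod arrestin Sag (-0.08, adjusted p = 0.483 by edgeR) and the rod gamma subunit Gngt1 (-0.06, adjusted p = 0.515 by edgeR) did not pass. The transducin alpha subunit Gnat1 (-1.18) and the channel subunit Cngb1 (-0.75) had the lowest adjusted p among them. Of 14 genes of shut-off, recovery and protein handling in photoreceptors, 11 fell and 3 did not pass, with a median of -0.43. The 3 with the lowest adjusted p were the rod exchanger gene Slc24a1 (-0.95), the guanylate cyclase activator Guca1b (-0.84) and the phosducin gene Pdc (-0.81). The cone exchanger gene Slc24a2, named after its value was seen, did not pass (-0.03, adjusted p = 0.754 by edgeR). Of 7 factors that act in cone development, 3 fell, namely Neurod1 (-0.66), Crx (-0.68) and the thyroid hormone receptor gene Thrb (-0.40). The others did not pass, and 1 of them was higher on average. That list is not specific to cones, as Crx is a photoreceptor factor. The adjusted threshold was passed by 14.5% of all genes. Of the pair of rod factors, Nrl fell (-0.83, adjusted p = 0.0012 by edgeR) and the other did not pass.

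To set cone and rod genes side by side, the log2 ratio of cone gene to rod counterpart was computed in every retinal library for 9 pairs, which do not include the opsins. With 3 libraries per group the exact two-sided permutation test cannot go below p = 0.1, so no pair could pass, and adjusted values over the 18 tests were 0.225 or above. The ratio was higher on average in aged than in young retinae for 7 of 9 pairs, and for 5 pairs every aged library lay above every young library. No such share over other pairs of genes was computed, while 35.3% of single genes did not overlap in this comparison. Of the 9 rod counterparts, all lower in aged retinae, 7 did not overlap on their own, and Pde6c enters 2 of the pairs. The widest gap was that of Gnb3 to Gnb1, at -3.65 ± 0.37 in aged and -5.26 ± 0.07 in young retinae (SD, n = 3, exact permutation p = 0.1). That pair is not specific to cones and rods, since ON bipolar cells share Gnb3 and many cell types express Gnb1. Cngb3 to Cngb1 was at -5.55 ± 0.20 in aged and -6.62 ± 0.10 in young retinae (SD, n = 3, exact permutation p = 0.1). Gnat2 to Gnat1 was at -5.74 ± 0.11 and -6.67 ± 0.09 (SD, n = 3, exact permutation p = 0.1). Cnga3 to Cnga1 and Arr3 to Sag were the 2 pairs lower on average in aged retinae, with differences of -0.12 and -0.11, and both overlapped. With single libraries left out, the difference of Cnga3 to Cnga1 ran from -0.18 to -0.055. These ratios add a pseudocount of 0.5 CPM to each gene. Without it Cnga3 to Cnga1 was at -8.34, -8.29 and -8.48 in aged and -8.24, -7.97 and -8.11 in young libraries, which did not overlap, a difference of -0.26 (exact permutation p = 0.1). No other of the 9 pairs gained or lost its separation without the pseudocount in this comparison.

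**Figure D3:**
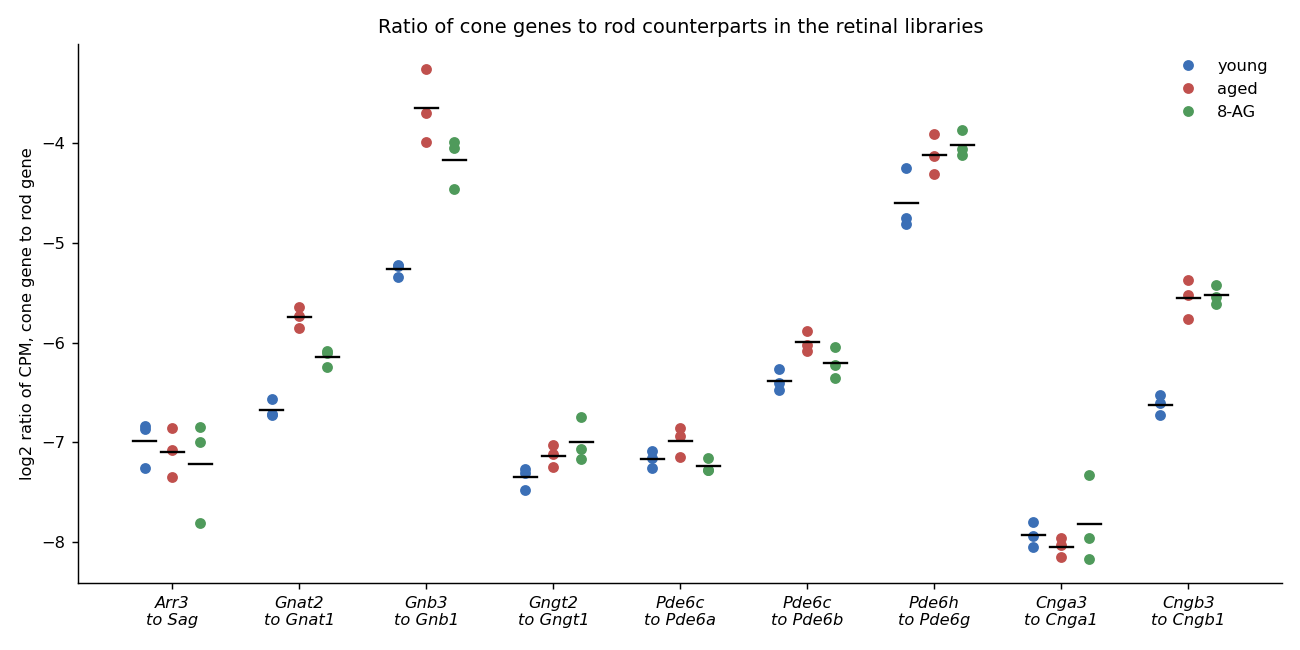
Log2 ratio of CPM (y axis) of cone gene to rod counterpart (x axis, 9 pairs) in the 9 retinal libraries. Points are single libraries, colored by group, and black lines are group means (n = 3). Aged points lie above all young points in 5 pairs, with the widest gap for Gnb3 to Gnb1, a pair not specific to cones and rods.

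None of the 10 members was called between 8-AG treated and aged retinae. By edgeR's quasi-likelihood test, 0 passed the adjusted p, where 0.0205% of 14631 genes did, and 0 met the fold and P rule, where 0.957% did. DESeq2 and limma also gave 0 at the adjusted p. In edgeR, 2 members had an unadjusted P under 0.05, Opn1sw and Cnga3, against 3.67% of genes, and in these 2 the 8-AG and aged libraries did not overlap, against 8.78% of genes. The median log2 fold change of the members was 0.04, and from -0.03 to 0.24 with single libraries left out. The aged libraries are shared with the comparison to young retinae, so values high or low in them enter both.

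Opn1sw measured 34.0, 28.8 and 32.6 CPM in 8-AG treated retinae, above all 3 aged libraries and within or below the young range. Its log2 fold change was 0.50 (SE 0.10, adjusted p = 0.464 by edgeR). Cnga3 measured 3.40, 2.85 and 2.54 CPM, from 44, 35 and 38 counts, with a log2 fold change of 0.56 (SE 0.23, adjusted p = 0.996 by edgeR). In 8-AG library 1, the library with lens and RPE transcripts, Arr3 was at 18.9 CPM against 46.1 and 47.0 CPM in the other 2, and the part of those transcripts in these values was not tested.

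For the other 8 members the 8-AG and aged ranges overlapped. With libraries paired by number, a pairing that the labels do not state, Opn1sw, Opn1mw and Cnga3 were higher in the 8-AG library of all 3 pairs. Gnb3 was lower in all 3, which makes 4 of 10 members with 1 direction throughout, against 25.8% of genes. For Opn1sw and Cnga3 that direction was fixed beforehand, since their 8-AG and aged libraries did not overlap. None of these 4 members passed the adjusted threshold of edgeR with the replicate number as a block. Opn1mw measured 28.4, 37.3 and 34.6 CPM (log2 fold change 0.15, interval -0.09 to 0.40) and Gnat2 measured 100.6, 130.1 and 126.9 CPM (0.11, interval -0.09 to 0.30). Gnb3 measured 186.1, 229.6 and 184.0 CPM and had a log2 fold change of -0.23 (interval -0.49 to 0.02), while the bipolar markers summed to between 1192 and 1531 CPM. All 11 bipolar markers were lower on average in 8-AG treated than in aged retinae, at a median of -0.27 on the log2 scale and with 0 past the adjusted threshold of edgeR (1 at an unadjusted P under 0.05), and their part in the Gnb3 value was not tested. Intervals are 95% confidence intervals by a normal approximation. Cngb3 measured 10.6, 13.5 and 15.04 CPM (0.25, interval -0.06 to 0.55) and Pde6c measured 23.5, 25.9 and 26.1 CPM (-0.13, interval -0.34 to 0.08). Gngt2 ranged from 11.7 to 20.7 CPM and Pde6h from 12.3 to 17.6 CPM. Arr3 had the widest interval, -0.75 to 0.65. Without 8-AG library 1, none passed the adjusted threshold, 5 had an unadjusted P under 0.05, against 6.63% of genes in that fit, and the median of the members was 0.24.

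The rod counterparts and the 14 genes of shut-off, recovery and protein handling gave 0 calls at the adjusted p in this comparison as well, both with a median of 0.13. The ratio of Gnat2 to Gnat1 was lower in every 8-AG library than in every aged library, at -6.14 ± 0.09 against -5.74 ± 0.11 (SD, n = 3, exact permutation p = 0.1, adjusted p = 0.225). Gnb3 to Gnb1 and Pde6c to Pde6a did not overlap either, but by narrow margins. The highest 8-AG and lowest aged values were both -3.99 to 2 decimals for Gnb3 to Gnb1, and were -7.16 and -7.15 for Pde6c to Pde6a. The other 6 pairs overlapped. No share of separated ratios over other pairs of genes was computed.

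In RPE/choroid, which holds no photoreceptors of its own, counts of all 10 members were found, and levels spread widely between the libraries of each group. The 8 rod counterparts other than Gnb1 summed to 6583, 7247 and 685.8 CPM in young, 3720, 234.7 and 6248 CPM in aged and 19940, 348.4 and 339.1 CPM in 8-AG libraries. The 8 members other than Gnb3 and Gngt2, a subset chosen after their levels were seen, summed to 133.2, 94.9 and 9.62 CPM in young, 84.8, 4.27 and 147.7 CPM in aged and 262.7, 9.58 and 19.0 CPM in 8-AG libraries. Young library 3, aged library 2 and 8-AG libraries 2 and 3 were low in both sums. The RPE markers summed to between 5418 and 17950 CPM and were lowest in 8-AG library 1, the library richest in rod transcripts. The part of carried-over neural retina in the cone values was not tested.

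**Figure D4:**
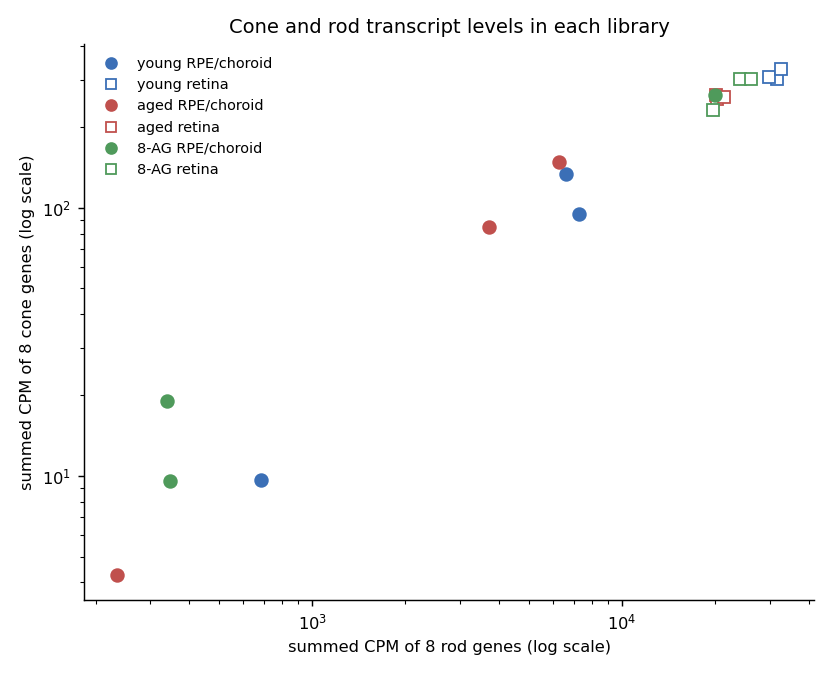
Summed CPM of 8 cone genes (y axis, log scale) against summed CPM of 8 rod genes (x axis, log scale) in each of the 18 libraries. The cone sum leaves out Gnb3 and Gngt2, and the rod sum leaves out Gnb1. Filled circles are RPE/choroid and open squares are retina, colored by group. The RPE/choroid libraries run from 234.7 to 19940 CPM of rod transcripts with cone levels that rise alongside, and 4 of them lie apart at the lower left. The proportion was not fixed, at 13.1 to 56 CPM of cone genes per 1000 CPM of rod genes over the RPE/choroid libraries.

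No member was called in RPE/choroid. For aged against young, edgeR gave 0 members at the adjusted p (0% of 16047 genes), 0 by the fold and P rule (1.35%) and 0 at an unadjusted P under 0.05 (2.13%), and 0 members did not overlap (7.1%). For 8-AG treated against aged the same counts were 0, with 0%, 1.65%, 1.69% and 3.96% of 16257 genes called. DESeq2 also gave 0 in both. Log2 fold changes ran from -0.74 to 1.58 for aged against young and from -0.25 to 1.11 for 8-AG against aged, with standard errors up to 1.71 and 2.20, so changes of several fold were not detectable except for Gngt2 (SE 0.18 and 0.25). The 1.58 was that of Gnb3. The 11 bipolar markers summed to 570.6, 408.1 and 95.6 CPM in young, 629.4, 88.2 and 1106 CPM in aged and 1309, 102.9 and 293.9 CPM in 8-AG RPE/choroid. All 11 were higher on average in aged than in young RPE/choroid, at a median of 0.95 on the log2 scale and with 0 past the adjusted threshold of edgeR (0 at an unadjusted P under 0.05), and their part in the Gnb3 value was not tested.

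Opn1sw measured 25.3, 20.2 and 1.72 CPM in young, 8.36, 0.589 and 47.5 CPM in aged and 45.5, 1.03 and 4.21 CPM in 8-AG RPE/choroid libraries, an 80.5-fold range. Gngt2 behaved differently, from 23.3 to 41.3 CPM over all 9 libraries, a 1.77-fold range, and lay between 28.4 and 35.6 CPM in the 4 libraries low in rod transcripts. Cnga3 was at 0 counts in 4 libraries, where a count of 0 allows an expected count of up to 3 per library at 95% confidence (counting error only), and reached 58 counts in 8-AG library 1. Gnb3, Gnat2, Arr3 and Pde6h had ranges of 65.7-fold, 37.1-fold, 69.3-fold and 54.0-fold. Opn1mw had a range of 134-fold. Pde6c ranged from 0.0589 to 12.2 CPM and Cngb3 from 0 to 6.13 CPM. In 8-AG library 3, which was low in rod transcripts, Cngb3 was at 4.125 CPM from 189 counts.

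The opsins did not keep a fixed proportion in every RPE/choroid library. The CPM ratio of Opn1sw to Opn1mw was 0.979, 1.09 and 1.15 in young, 0.598, 1.43 and 3.62 in aged and 0.823, 0.949 and 6.43 in 8-AG libraries. Aged library 3 had 1406 counts of Opn1sw to 388 of Opn1mw, and 8-AG library 3 had 193 to 30. In retinae the ratio ranged from 0.643 to 1.2 over the 9 libraries. Young libraries 1 and 2 and aged libraries 1 and 2 share a label number with L and R added, and the labels do not say whether each pair is 1 rat.

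The response of the members was compared between tissues with an exact permutation test of the difference between tissues in group differences (400 regroupings, 10 members by 2 contrasts). The lowest p was 0.25 and 0 of 20 passed, with standard errors in RPE/choroid that leave large differences undetected. Separation in opposite directions in the 2 tissues could not occur for any member, since the groups of every member overlapped in RPE/choroid.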

How the data were processed

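Bulk RNA-seq was analysed in 9 retinal and 9 RPE/choroid libraries, 3 per group, grouped by the sample titles. For retina the authors deposited expected counts from RSEM, of which 11.5% were not whole, and these were rounded. For RPE/choroid the authors deposited raw counts for each gene. The submitters' processing notes list Bowtie2 2.1.0, RSEM 1.2.15, edgeR and build Rnor_6.0, without saying which applied to which table. The authors also deposited a TMM-normalized signal table for retina, used to pair symbols with identifiers and for an alternative with limma. Tables of the authors' own comparisons (fold changes and p-values) were not used, apart from their identifier and name columns. In the retina tables the 8-AG columns are headed as compound.

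Genes passing filterByExpr were tested for each pair of groups with edgeR 4.0.16 (TMM, robust quasi-likelihood F-test), with Benjamini-Hochberg adjustment over all genes. DESeq2 1.42.0, limma 3.58.1, RLE factors, other filters, all 3 groups in 1 fit, a replicate block and leaving out libraries were alternatives. Leaving out both lens-rich young libraries was added after seeing the data, as was the test between tissues. All replicate libraries differed by more than sampling noise. In 8-AG against aged retinae same-numbered libraries deviated weakly together (r = 0.114, 0.12 and 0.127), and the rule used here treats them as paired. These values do not establish a pairing, as retinal libraries with unlike numbers reached r = 0.235 in aged against young. The labels do not state a pairing, the main test was unpaired, and the replicate block changed no call in 8-AG against aged retinae. Ratios used CPM with a pseudocount of 0.5. Depth is given as total counts, and intervals cover counting error and the spread between these libraries only. All 10 members are named with values, along with their rod counterparts where set beside them and, from the other lists, up to 3 genes per comparison with the lowest adjusted p under 0.05. Slc24a2 was named outside this rule. Of 71 list symbols 69 were found. 1 item is not reported here. The members, the lists and the alternatives were chosen with earlier results of these data known.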

Additional observations from a re-analysis of the deposited data

How the results depend on the processing

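For aged against young retinae, 5 cone genes passed the adjusted threshold, a count that ranged from 3 to 5 when single libraries were left out and was 2 without both lens-rich young libraries, where Pde6h was at -0.25. The fold and P count was 3, from 2 to 3 with single libraries left out, 2 with limma and 4 without both lens-rich young libraries. The fold and P count for 8-AG against aged retinae ranged from 0 to 1, with Cnga3 called without 8-AG library 3. Gnat2 lost its call with all 3 groups in 1 fit (-0.25, adjusted p = 0.084 by edgeR), and Cnga3 with DESeq2. With at least 10 counts required in every library, 7 members were tested in RPE/choroid. The replicate block left 5 members called for aged against young retinae and 0 in each of the other 3 comparisons. Outside 8-AG against aged retinae, the same-numbered libraries did not all deviate together (r from -0.636 to 0.723).

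Signs that turned belonged to values that had not passed a test, and the cause was not tested. With single libraries left out, log2 fold changes ran as follows. In aged against young retinae, Pde6h from -0.076 to 0.17. In 8-AG against aged retinae, Arr3 from -0.25 to 0.27, Gngt2 from -0.37 to 0.057 and Pde6h from -0.11 to 0.12. In aged against young RPE/choroid, Opn1sw from -1.80 to 0.80, Arr3 from -0.98 to 0.35, Gnat2 from -0.54 to 0.81, Pde6c from -0.63 to 0.65, Pde6h from -0.55 to 0.65, Cnga3 from -0.76 to 0.47 and Cngb3 from -0.20 to 1.15. In 8-AG against aged RPE/choroid, Opn1sw from -2.84 to 1.97, Opn1mw from -3.40 to 1.66, Arr3 from -2.21 to 0.98, Gnat2 from -2.59 to 0.9955, Gnb3 from -3.69 to 0.99, Gngt2 from -0.29 to 0.045, Pde6c from -2.20 to 0.89, Pde6h from -2.72 to 1.07 and Cnga3 from -6.69 to 1.35. The differences in log2 ratio ran for Arr3 to Sag from -0.24 to 0.0196 in aged against young retinae, and for Arr3 to Sag from -0.31 to 0.17, Cnga3 to Cnga1 from -0.017 to 0.40 and Cngb3 to Cngb1 from -0.076 to 0.12 in 8-AG against aged retinae. With single libraries left out and no change of sign, log2 fold changes that had not passed also moved by over 1.5 times in retinae, namely Arr3 (-0.33 to -0.083) and Pde6c (-0.26 to -0.13) in aged against young and Opn1mw (0.071 to 0.26), Gnat2 (0.040 to 0.21), Gnb3 (-0.34 to -0.098), Pde6c (-0.21 to -0.080) and Cngb3 (0.13 to 0.38) in 8-AG against aged. The replicate block gave Opn1sw -1.23 and Gnat2 -0.18 in aged against young and Opn1sw 0.17, Gnat2 -0.20 and Cnga3 -0.93 in 8-AG against aged RPE/choroid. Summing RPE/choroid libraries that share a label number gave Arr3 0.066, Pde6c 0.55, Pde6h 0.54 and Cnga3 0.38 in aged against young and Gnat2 -0.10 in 8-AG against aged. Cnga3 rested on 27 to 59 counts per library in young and aged retinae, and standard errors in RPE/choroid reached 2.20.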
